A study of Homo sapiens with 16 samples.

Results

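The read counts around the transcription start sites of 10 genes that write or erase methylation of lysine 9 on histone H3 (H3K9) were examined in human fibroblasts with and without LEO1. The writers were EHMT1, EHMT2, SUV39H2, SETDB1 and SETDB2, and the erasers were KDM3A, KDM3B, KDM4A, KDM4C and KDM1A. All windows of the start site table that carried 1 of these symbols were taken, and each alternative start was kept apart. This gave 246 transcript entries at 216 distinct windows, out of 272902 entries at 237274 distinct windows and 40113 symbols in the whole table. Every window was 2000 bp wide, so levels could be compared between windows without a correction for length. A read was found in 138 of the 216 distinct windows, which belonged to 9 of the 10 genes and merged into 58 separate loci, and the other 78 were all windows of EHMT2.

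The cells were BJ-5ta, an established line of human fibroblasts immortalised with telomerase (hTERT). LEO1 is a subunit of the PAF1 complex, which travels with RNA polymerase II. Wild type cells (WT) and a LEO1 knockout (ΔLEO1) were grown in 10% serum or made quiescent in 0.1% serum for 10 days, and ChIP and input DNA were sequenced as replicates A and B of each of the 4 conditions. The knockout was made with CRISPR/Cas9 guides to exons 1 and 2 and is a single-cell clone, so the clone and the genotype cannot be told apart. The labels name the antibody as H3, whereas the design text of the series and the study's methods give dimethylated H3K9 (H3K9me2), so these libraries are called only ChIP. Read counts from genomic DNA check neither the loss of LEO1 protein nor the cell type.

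Methylation of H3K9 marks chromatin that is kept silent. EHMT1 (GLP) and EHMT2 (G9a) act together as the main dimethyltransferase of euchromatin, SUV39H2 trimethylates H3K9 in constitutive heterochromatin, and SETDB1 silences transposable elements with the KRAB zinc finger and TRIM28 system. The KDM3 enzymes remove mono- and dimethylation, the KDM4 enzymes remove di- and trimethylation, and KDM1A (LSD1) is a flavin-dependent demethylase that works with the CoREST complex. The question here was how much ChIP signal lay on the genes of these enzymes themselves.

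The ChIP library labelled ΔLEO1 in 10% serum, replicate A, held 54 reads and was left out, which left 15 of 16 libraries. The other ChIP libraries held 2153836 to 3696942 reads over the windows and the inputs 3267811 to 9238282. ΔLEO1 in 10% serum therefore had 1 ChIP library, and its tests assume that this library varies like those of the other groups. The inputs of that condition also stood apart from each other, with a Pearson correlation of log2 levels across windows of 0.37, against 0.594 to 0.634 in the other input pairs. Levels are given in counts-per-million (CPM) on TMM-scaled library totals, on which 3 reads, the limit taken for a count of 0, were worth 0.826 to 1.49 CPM in a ChIP library. This limit covers counting error only.

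The main start of a gene was taken as the window nearest to its RefSeq gene start in assembly GRCh38.p14. These windows lay at chr9:137618005-137620005 for EHMT1, chr6:31896698-31898698 for EHMT2, chr10:14877866-14879866 for SUV39H2, chr1:150925263-150927263 for SETDB1 and chr13:49443274-49445274 for SETDB2. For the erasers they lay at chr2:86439647-86441647 for KDM3A, chr5:138351685-138353685 for KDM3B, chr1:43649149-43651149 for KDM4A, chr9:6719863-6721863 for KDM4C and chr1:23018468-23020468 for KDM1A. The KDM3A window was centred 3603 bp from the RefSeq gene start and so does not hold that start. EHMT2 lies on the minus strand and the other genes on the plus strand. Some of these windows also hold the start of a neighbour, namely ARRDC1-AS1 at EHMT1, C2 at EHMT2, SUV39H2-DT at SUV39H2, CAB39L at SETDB2 and TEX46 at KDM1A, and reads of ChIP DNA cannot be divided between them.

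The DNA just upstream of 4 of the genes is shown because it spans the contrast among the members, from writers whose starts held few ChIP reads (EHMT1, SUV39H2) to a writer and an eraser whose starts were near input (SETDB1, KDM3B). The sequences are the 250 bases before the RefSeq start in GRCh38.p14, plus strand, at chr9:137618755-137619004 for EHMT1, chr10:14878616-14878865 for SUV39H2, chr1:150926013-150926262 for SETDB1 and chr5:138352435-138352684 for KDM3B. Capitals mark matches on either strand to the GC box GGGCGG, the ETS core motif CCGGAAG, the CCAAT box, the cyclic AMP response element TGACGTCA or the E-box CACGTG, and in KDM3B a CCAAT match on the minus strand overlaps a GGGCGG match.
EHMT1: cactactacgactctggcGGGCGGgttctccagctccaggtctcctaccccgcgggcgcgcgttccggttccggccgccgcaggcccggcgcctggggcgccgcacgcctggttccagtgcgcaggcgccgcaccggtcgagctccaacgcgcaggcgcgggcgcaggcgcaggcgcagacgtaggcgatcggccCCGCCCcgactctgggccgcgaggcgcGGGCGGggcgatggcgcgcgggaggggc
SUV39H2: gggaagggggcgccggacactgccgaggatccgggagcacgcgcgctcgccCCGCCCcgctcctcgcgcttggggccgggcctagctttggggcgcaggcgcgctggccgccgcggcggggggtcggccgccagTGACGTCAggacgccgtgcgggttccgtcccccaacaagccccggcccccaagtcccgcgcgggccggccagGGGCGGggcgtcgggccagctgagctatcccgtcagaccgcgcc
SETDB1: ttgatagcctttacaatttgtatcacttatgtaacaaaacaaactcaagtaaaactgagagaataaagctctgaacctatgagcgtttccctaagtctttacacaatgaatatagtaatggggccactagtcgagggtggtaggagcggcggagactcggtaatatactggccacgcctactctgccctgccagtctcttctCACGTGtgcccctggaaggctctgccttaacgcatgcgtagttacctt
KDM3B: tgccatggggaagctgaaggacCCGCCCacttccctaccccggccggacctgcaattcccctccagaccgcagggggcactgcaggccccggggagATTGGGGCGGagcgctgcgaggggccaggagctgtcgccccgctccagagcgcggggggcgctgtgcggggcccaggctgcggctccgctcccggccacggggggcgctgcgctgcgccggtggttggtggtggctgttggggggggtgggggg

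The GC content of these promoters was 78.8% for EHMT1, 79.6% for SUV39H2, 76.4% for KDM3B and 46.0% for SETDB1, and the median over the 10 genes was 63.6% against 58% over all 35116 promoters of the RefSeq table. SETDB1 was thus the only member whose promoter in this set was AT-rich. For KDM3A and KDM4C the promoter was that of a downstream start described below, and the DNA just before their main starts was not examined. GGGCGG was found in 6 of the 10 promoters and in 42.6% of all promoters, CCAAT in 4 and 32.0%, CACGTG in 3 and 6.34%, CCGGAAG in 1 and 8.52%, and TGACGTCA in 1 and 1.65%. The single TGACGTCA match was that of SUV39H2 printed above. A match is a description of the letters and not a bound site.

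EHMT2 could not be measured. All 78 of its distinct windows, 12 on chromosome 6 and 66 on 6 alternate contigs of the same region, held 0 reads in every library, input included. The gene lay in a run of 312 windows of 45 symbols from chr6:31836076 to chr6:32474500 that were all at 0. In the whole table, all 18953 windows on alternate contigs were at 0, and so were 44.9% of the primary windows whose symbol also had windows on an alternate contig, against 1.21% of the primary windows of other symbols. No other member had windows on an alternate contig. As the inputs were empty as well, the zeros say nothing about the mark on EHMT2, and their cause was not tested.

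Among the writers, the start of EHMT1 held little ChIP signal. It had 3 and 3 ChIP reads in WT in 10% serum, 3 in ΔLEO1 in 10% serum, 3 and 0 in WT in 0.1% serum, and 3 and 3 in ΔLEO1 in 0.1% serum. The inputs of the same groups, in that order, had 22 and 49, 8 and 41, 13 and 25, and 20 and 28 reads. The 7 ChIP libraries were thus at or below 3 reads, the limit taken for a count of 0, and no library of ChIP reached the lowest input in CPM. ChIP was lower than input by a log2 difference of -1.65 ± 0.46 (SE, adjusted p = 0.00124) in WT in 10% serum, -1.72 ± 0.54 (adjusted p = 0.00464) in WT in 0.1% serum and -1.44 ± 0.47 (adjusted p = 0.00637) in ΔLEO1 in 0.1% serum. In ΔLEO1 in 10% serum, with 1 ChIP library, the difference of -1.21 ± 0.68 did not pass (adjusted p = 0.167). The call in WT in 0.1% serum was lost without ChIP replicate B (-1.24) or input replicate B (-1.23), and that in ΔLEO1 in 0.1% serum without ChIP replicate A (-1.29).

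SUV39H2 had the lowest ChIP over input of the members in both genotypes in 0.1% serum. Its ChIP reads were 4 and 6 in WT in 10% serum, 1 in ΔLEO1 in 10% serum, 2 and 0 in WT in 0.1% serum, and 1 and 2 in ΔLEO1 in 0.1% serum. The inputs had 33 and 50, 18 and 38, 37 and 36, and 28 and 34 reads. In CPM this was 1.87 ± 0.319 (SD, n = 2), 0.495 (n = 1), 0.314 ± 0.444 and 0.541 ± 0.375 (n = 2 each) for ChIP, against group means of 4.43 to 5.19 for input, and the groups of ChIP and input did not overlap. The log2 difference was -1.29 ± 0.40 (adjusted p = 0.0033) in WT in 10% serum, -2.87 ± 0.51 (adjusted p = 7.13e-07) in WT in 0.1% serum, -2.41 ± 0.49 (adjusted p = 1.26e-05) in ΔLEO1 in 0.1% serum and -2.50 ± 0.78 (adjusted p = 0.0114) in ΔLEO1 in 10% serum, the last of which DESeq2 did not call. In WT in 0.1% serum the start ranked at the 1.23 percentile of the 36318 genes whose main start was tested.

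SETDB1 differed from these genes, because its start was close to input in most groups. The ChIP reads were 14 and 17 in WT in 10% serum, 3 in ΔLEO1 in 10% serum, 19 and 10 in WT in 0.1% serum, and 10 and 9 in ΔLEO1 in 0.1% serum. The inputs had 38 and 50, 10 and 49, 35 and 33, and 18 and 30 reads. ChIP and input overlapped in CPM in WT in both sera and in ΔLEO1 in 0.1% serum, and the lone ΔLEO1 ChIP library in 10% serum lay below its inputs. The log2 differences were 0.081 ± 0.30, 0.093 ± 0.31 and -0.085 ± 0.36 in WT in 10% serum, WT in 0.1% serum and ΔLEO1 in 0.1% serum, none of which passed (adjusted p = 0.83, 0.818 and 0.853), and the lone ΔLEO1 library in 10% serum gave -1.46 ± 0.64 (adjusted p = 0.0714).

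SETDB2, a relative of SETDB1, had 9 and 6 ChIP reads in WT in 10% serum, 12 in ΔLEO1 in 10% serum, 4 and 3 in WT in 0.1% serum, and 6 and 2 in ΔLEO1 in 0.1% serum, against 16 to 51 reads in the inputs. ChIP was lower than input in 0.1% serum in WT (-1.75 ± 0.42, adjusted p = 0.000224) and in ΔLEO1 (-1.46 ± 0.42, adjusted p = 0.00182, lost without input replicate B at -1.08). In 10% serum the values were -0.75 ± 0.36 in WT and 0.37 ± 0.46 in ΔLEO1 and did not pass (adjusted p = 0.0641 and 0.569). The highest level was that of the lone ΔLEO1 library in 10% serum, 5.95 CPM.

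**Figure D1:**
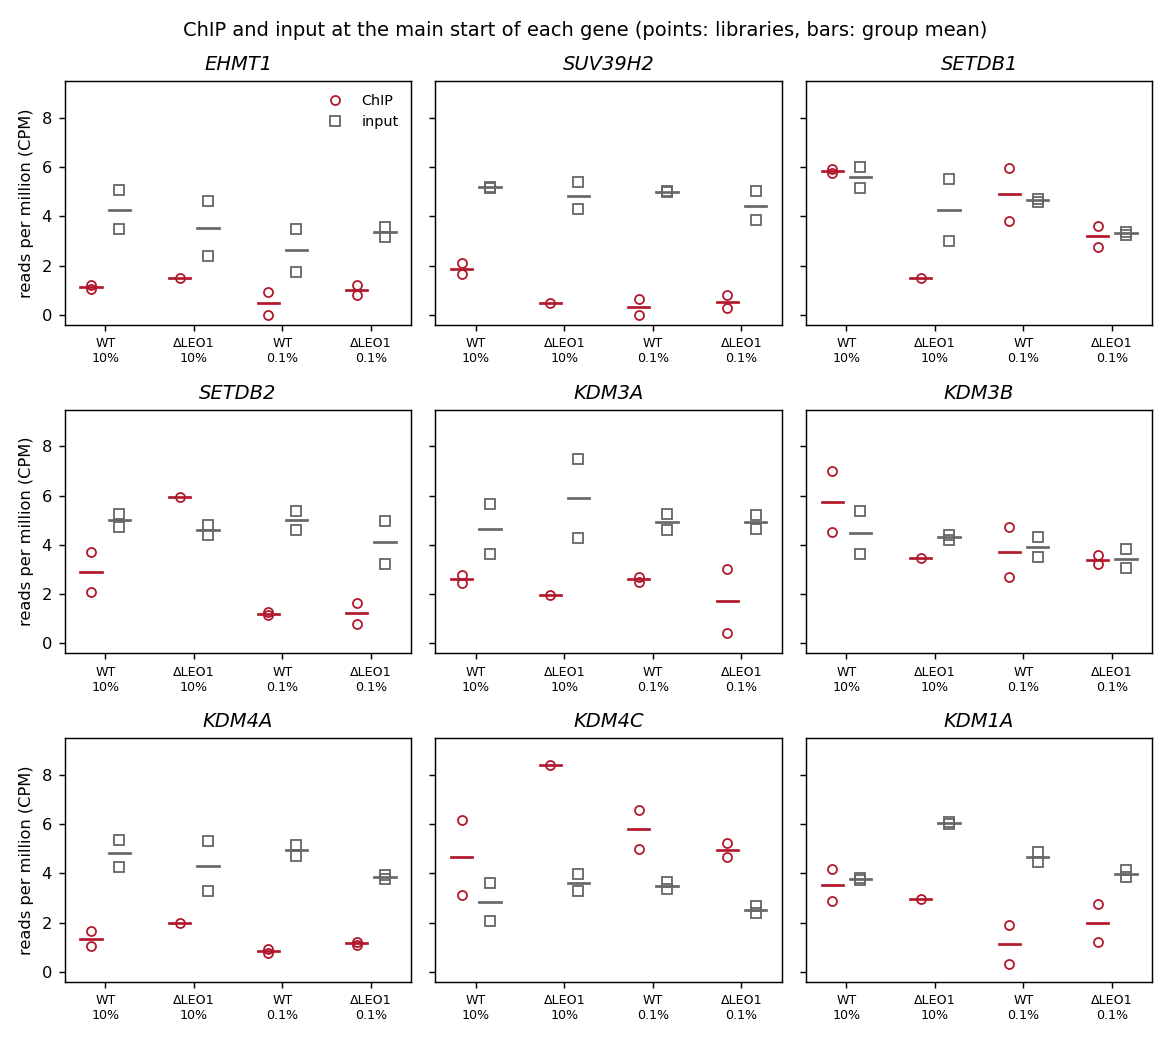
ChIP (circles) and input (squares) in CPM at the main start of the 9 genes with reads, by genotype and serum, where each point is a library and each bar a group mean. At SUV39H2 every ChIP point lies below every input point, at SETDB1 and KDM3B the ChIP and input points intermix in 0.1% serum, and at KDM4C the ChIP mean lies above the input mean in all 4 conditions.

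Among the erasers, KDM4A, which acts on di- and trimethylated H3K9, had ChIP levels near those of EHMT1. Its start had 4 and 3 ChIP reads in WT in 10% serum, 4 in ΔLEO1 in 10% serum, 3 and 2 in WT in 0.1% serum, and 4 and 3 in ΔLEO1 in 0.1% serum, against 11 to 52 reads in the inputs. No ChIP library reached any input library in CPM. ChIP was lower than input in WT in 10% serum (-1.63 ± 0.43, adjusted p = 0.000583), WT in 0.1% serum (-2.09 ± 0.45, adjusted p = 4.03e-05) and ΔLEO1 in 0.1% serum (-1.47 ± 0.44, adjusted p = 0.00248), while ΔLEO1 in 10% serum gave -1.10 ± 0.61 (adjusted p = 0.157).

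KDM4C, the other enzyme of that family among the members, lay at the opposite end. Its start had 15 and 9 ChIP reads in WT in 10% serum, 17 in ΔLEO1 in 10% serum, 21 and 13 in WT in 0.1% serum, and 17 and 13 in ΔLEO1 in 0.1% serum. The inputs had 13 and 35, 11 and 35, 27 and 24, and 15 and 21 reads, so that ChIP held a similar number of reads at a smaller depth. In CPM, ChIP was 4.65 ± 2.14, 8.42, 5.79 ± 1.14 and 4.96 ± 0.395 in that order, against 2.83 ± 1.10, 3.63 ± 0.461, 3.49 ± 0.205 and 2.53 ± 0.228 in input, and the points overlapped in WT in 10% serum and in no other condition. ChIP was called higher than input in ΔLEO1 in 0.1% serum (0.88 ± 0.35, adjusted p = 0.0243) and in ΔLEO1 in 10% serum (1.08 ± 0.43, adjusted p = 0.0489), and not in WT (0.55 ± 0.35 in 10% serum, adjusted p = 0.173, and 0.69 ± 0.32 in 0.1% serum, adjusted p = 0.0599). Both calls were lost with DESeq2. The first was also lost without either ChIP library or without input replicate B of that group, and the second without either input or without TMM.

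The choice of start mattered for KDM4C. A second RefSeq start, 37110 bp downstream at chr9:6756973-6758973, had 8 and 3 ChIP reads in WT in 10% serum, 1 in ΔLEO1 in 10% serum, 3 and 3 in WT in 0.1% serum and 1 and 1 in ΔLEO1 in 0.1% serum, against 14 to 61 in the inputs. There ChIP was lower than input in WT in 10% serum, by a log2 difference of -1.21 ± 0.39 (adjusted p = 0.0052), and in ΔLEO1 in 0.1% serum, by -2.63 (adjusted p = 8.11e-06). The upstream start of KDM4C thus held ChIP reads at or above input, whereas the downstream start of the same gene was among the low windows.

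KDM3A and KDM3B, demethylases of mono- and dimethylated H3K9, differed from each other. KDM3A had 6 and 8 ChIP reads in WT in 10% serum, 4 in ΔLEO1 in 10% serum, 8 and 7 in WT in 0.1% serum, and 11 and 1 in ΔLEO1 in 0.1% serum, against 23 to 55 in the inputs. KDM3B had 11 and 20, 7, 15 and 7, and 13 and 8 reads in the same groups, against 14 to 52 in the inputs. KDM3A was called lower than input in WT in 0.1% serum (-0.84 ± 0.37, adjusted p = 0.0443) and in ΔLEO1 in 0.1% serum (-1.16 ± 0.38, adjusted p = 0.00667), whereas KDM3B stayed within 0.31 of input on the log2 scale in all 4 conditions and was called in none. The first KDM3A call was lost with DESeq2 and without any 1 of the 4 libraries of that group, the second without ChIP replicate B, which had 1 read. A KDM3A window 724 bp further downstream, at chr2:86440371-86442371, is centred on the start given by the RefSeq promoter set. It was lower, with 3 and 2, 5, 4 and 2, and 1 and 0 ChIP reads. The log2 differences there were -1.90 (adjusted p = 0.000215) in WT in 10% serum, -1.86 (adjusted p = 0.000184) in WT in 0.1% serum and -3.18 (adjusted p = 2.86e-07) in ΔLEO1 in 0.1% serum. With this start KDM3A was thus called lower in WT in 10% serum as well.

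KDM1A had 7 and 12 ChIP reads in WT in 10% serum, 6 in ΔLEO1 in 10% serum, 1 and 5 in WT in 0.1% serum, and 10 and 3 in ΔLEO1 in 0.1% serum, against 20 to 54 in the inputs. Relative to input it was at -0.058 ± 0.36 (adjusted p = 0.901) in WT in 10% serum and called lower in WT in 0.1% serum (-1.82 ± 0.44, adjusted p = 0.000231), a call that was lost without ChIP replicate A, which had 1 read (-1.20). In ΔLEO1 the values of -0.94 ± 0.53 in 10% serum and -0.79 ± 0.39 in 0.1% serum did not pass (adjusted p = 0.17 and 0.0706).

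Taking the 9 main starts together, ChIP was called lower than input at 3 in WT in 10% serum, at 6 in WT in 0.1% serum, at 5 in ΔLEO1 in 0.1% serum and at 1 in ΔLEO1 in 10% serum. Of the main starts of all genes, 23.1%, 21.5%, 23% and 9.08% were called lower in those conditions. Calls above input were made at 0, 0, 1 and 1 of the 9 starts, against 40.7%, 34.9%, 36.1% and 22.9% of all genes. Of the calls below input, those at EHMT1, KDM3A and KDM1A in WT in 0.1% serum were each lost without a single library. So were those at EHMT1, SETDB2 and KDM3A in ΔLEO1 in 0.1% serum. The median log2 difference of the 9 starts was -0.75, -1.72, -1.16 and -1.10, against 0.40, 0.33, 0.35 and 0.27 over all main starts. In WT in 10% serum the members ranked from the 10.6 percentile (EHMT1) and the 10.9 percentile (KDM4A) to the 47.6 percentile (KDM3B) and the 54 percentile (KDM4C).

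**Figure D2:**
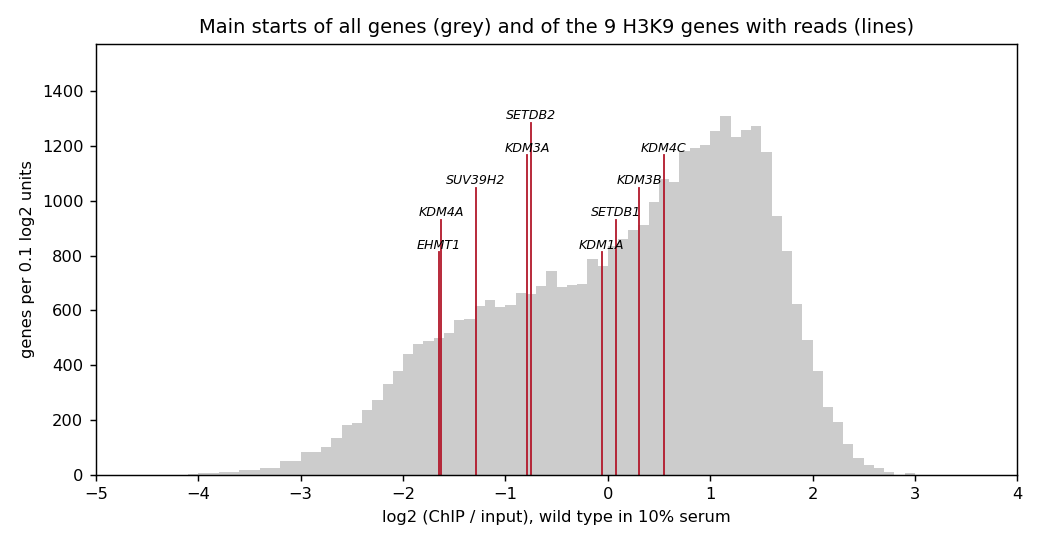
Distribution of the log2 difference of ChIP and input at the main starts of all 36318 genes tested, with the 9 members marked by lines. In WT in 10% serum most members lie left of the median over all genes of 0.40, and KDM4C (0.55) lies to its right.

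Other genes of the same pathway were compared at their main starts in WT in 10% serum. There 40.7% of the main starts of all genes were called higher than input and 23.1% lower. Of 5 other genes taken as writers, 3 were called higher than input and 0 lower, with a median of 1.08. Those called were PRDM2 (1.67), PRDM16 (2.29) and SETMAR (1.08). SETMAR, whose value is also the median, is not an established H3K9 writer, and the activity of the 5 was not checked here. Of 9 other erasers of the KDM4, JMJD1C, PHF and KDM1B kind, 1 was called higher and 6 lower, with a median of -1.46. Of 20 partners and readers, such as the HP1 proteins and TRIM28, 3 were called higher and 8 lower, with a median of -0.61. As reference points, 0 and 7 of 9 widely active genes were called higher and lower (median -1.55), and 278 and 2 of 353 olfactory receptor genes (median 1.26), which are silent in fibroblasts. The median of the members, -0.75, lay between those of the widely active genes and the olfactory receptors.

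Away from the main starts, the median level was higher at 7 genes and lower at KDM4C and KDM3B. In WT, taking the ratio of mean ChIP to mean input in CPM over both sera, the 46 distinct windows within 2000 bp of a main start had a median ratio of 0.408 and 15 lay above 1. SETDB1, with a ratio of 1.05 at its main start, had 17 windows, of which only 3 lay clear of the main one. The 8 windows at 2000 to 20000 bp had a median of 1.10, and the 84 windows further away had a median of 1.11, of which 46 lay above 1. EHMT1 supplied 44 of the 92 windows that did not overlap a main window. Gene by gene, the median ratio of these windows was above that of the main start at 7 genes, for example KDM3A (1.46 against 0.545), and below it at KDM4C (0.721 against 1.65) and KDM3B (0.784 against 1.12). SUV39H2 and SETDB2 had 1 such window each. Those of KDM4C include its low second start, and 6 of its 14 lay above 1, up to 2.26. Member windows overlap and share reads, so they are not independent, and no test was run over them. Over all 138 windows, 19 were called higher and 36 lower than input in WT in 10% serum, where 29.5% and 29.1% of all windows tested were called. In WT in 0.1% serum the counts were 19 and 40 (25.7% and 28% of all windows), in ΔLEO1 in 0.1% serum 26 and 38 (27% and 28.7%), and in ΔLEO1 in 10% serum 18 and 17 (15.4% and 11.3%). Of the 92 windows clear of a main window, 19 were called higher and 13 lower in WT in 10% serum.

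EHMT1 had the most windows, 52, of which 44 were clear of the main one, and 30 of these had a WT ratio above 1. Its highest window, chr9:137831853-137833853, lay 213848 bp downstream of the main start. It had 31 and 36 ChIP reads in WT in 10% serum, 27 in ΔLEO1 in 10% serum, 46 and 35 in WT in 0.1% serum, and 46 and 32 in ΔLEO1 in 0.1% serum, against 13 to 35 reads in the inputs. All 7 ChIP libraries lay between 12.6 and 14.4 CPM and all inputs at or below 4.51 CPM. The log2 difference of ChIP and input was 1.70 ± 0.26 in WT in 10% serum and 2.17 in WT in 0.1% serum. As the window was picked from the 52 for its WT ratio, these values are a description and no test. The WT ratio at this window was 4.13.

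The highest windows of the other genes had smaller ratios. That of KDM4C, 407044 bp downstream, had a WT ratio of 2.26, and that of KDM3A, 15786 bp downstream, of 2.24. KDM3B (1.72 at 74056 bp), SETDB1 (1.67 at 36711 bp), KDM1A (1.43 at 48702 bp), SUV39H2 (1.26 at 2634 bp) and SETDB2 (1.09 at 7278 bp) followed. KDM4A was the only measured member with no window above 1 in WT, and its highest WT ratio was 0.666 at 3157 bp. In ΔLEO1 in 0.1% serum, 1 of its 5 windows was called higher than input, where 27% of all windows were, and its highest log2 difference was 0.75. The highest window of each gene was picked for its WT ratio, which is given as a description.

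**Figure D3:**
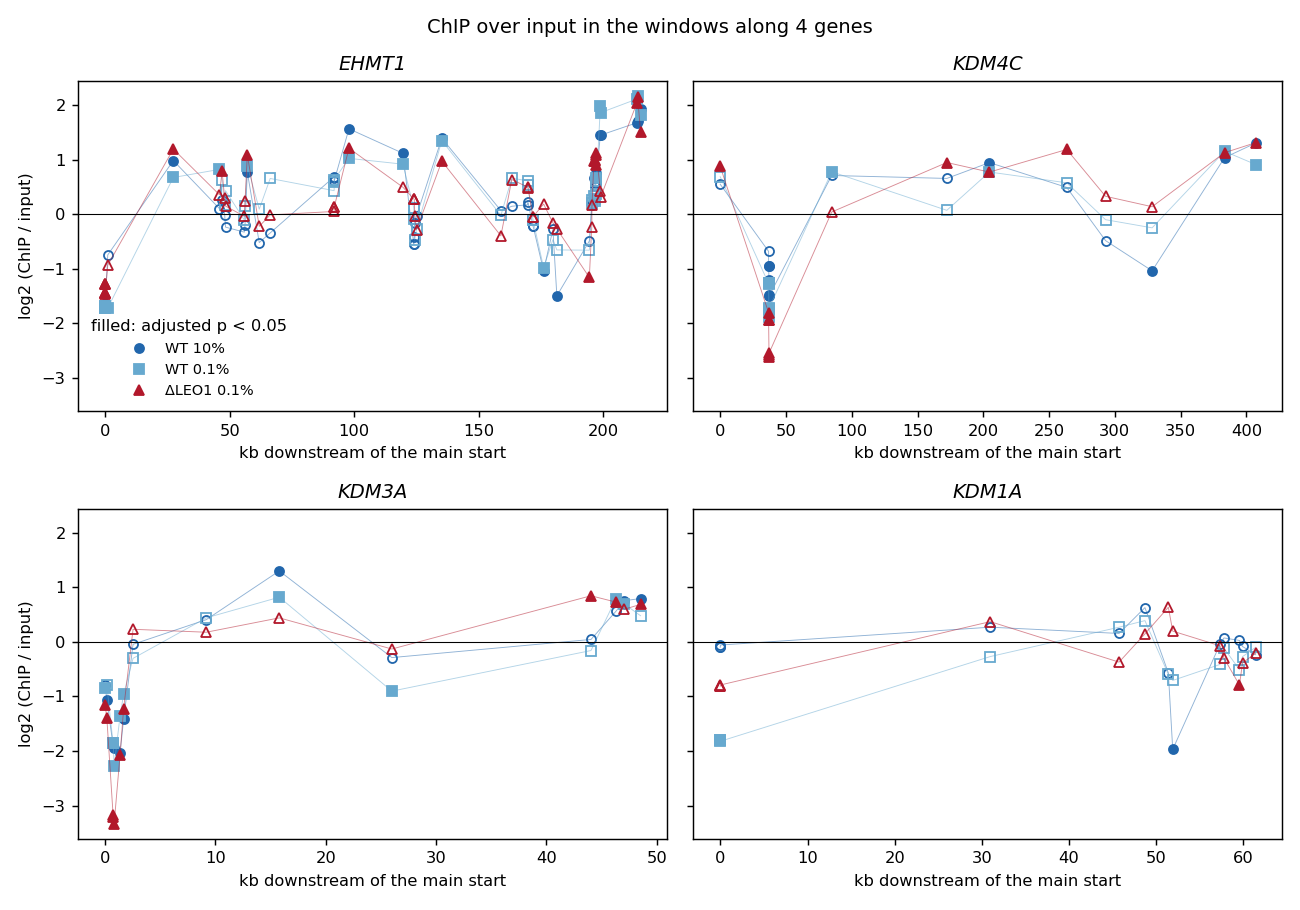
Log2 difference of ChIP and input in the windows along EHMT1, KDM4C, KDM3A and KDM1A against the distance from the main start in kb, for WT in 10% serum, WT in 0.1% serum and ΔLEO1 in 0.1% serum, with filled symbols where the adjusted p was under 0.05. The windows of EHMT1 run from -1.65 at the start to 1.93 at their highest in WT in 10% serum, and those of KDM4C dip at the second start, 37110 bp downstream.

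Loss of LEO1 in 0.1% serum was examined with the 4 ChIP libraries in 0.1% serum, within a fit of all 7. Of the 138 windows, 102 passed the filter on low counts, among them 5 of the 9 main starts (SETDB1, SETDB2, KDM3B, KDM4C and KDM1A). A window in the body of EHMT1 was called lower in ΔLEO1. That call was lost with DESeq2 and with any 1 of the 4 libraries left out. In all, 2 of the 102 windows were called lower and 0 higher, where 0.266% and 0.0815% of all windows tested were called, and the 2 overlap and so make up 1 locus. The median log2 fold change was -0.049 over the members and -0.0078 over all windows. None of the 5 main starts tested was called (smallest adjusted p = 0.602), and with an unadjusted p under 0.05 there were 0.

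The called window with the smaller p, chr9:137816934-137818934, lay 198929 bp downstream of the EHMT1 main start. It had 37 and 31 ChIP reads in WT in 0.1% serum and 16 and 11 in ΔLEO1 in 0.1% serum, against 25 and 31 in WT and 18 in ΔLEO1 in 10% serum. Both ΔLEO1 libraries in 0.1% serum lay below every other ChIP library, and the inputs, at 9 to 35 reads, did not separate the genotypes. The log2 fold change was -1.26 ± 0.29 (adjusted p = 0.0122), and that of the overlapping window chr9:137817113-137819113 was -1.14 ± 0.30 (adjusted p = 0.0485). Relative to input the window stood at 1.98 (adjusted p = 9.95e-10) in WT in 0.1% serum and at 0.43 (adjusted p = 0.273) in ΔLEO1 in 0.1% serum. The difference between these, -1.56 ± 0.44, was not called (adjusted p = 0.29), the input itself differed by 0.23 ± 0.31, and the genotype effect in 10% serum was -0.20 ± 0.37 (adjusted p = 0.926), with an interaction of -1.06 ± 0.48 that did not pass (adjusted p = 0.837). The call was lost with DESeq2 (adjusted p = 1.00), with any 1 of the 4 libraries left out (adjusted p = 0.08 to 0.258, at fold changes of -1.28 to -1.23) and with peak totals as library sizes (-0.99, adjusted p = 0.058), and DESeq2 called 0 member windows (3 at an unadjusted p under 0.05).

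With an unadjusted p under 0.05 there were 11 member windows, or 8 loci, of which 8 windows were lower and 3 higher, where 10.7% of all windows had such a p. The 3 higher ones did not pass adjustment. A window of KDM1A 51386 bp downstream had 8 and 7 ChIP reads in WT and 23 and 19 in ΔLEO1 (1.21 ± 0.36, adjusted p = 0.0891). A window of SETDB2 at 7278 bp had 8 and 8 against 26 and 14 reads (1.08 ± 0.35, adjusted p = 0.164), and a window of KDM4A at 3157 bp had 7 and 9 against 26 and 11 (0.97 ± 0.36, adjusted p = 0.233). In each of these the ΔLEO1 libraries lay above the WT libraries in reads, which follows in part from picking windows by p in the same libraries. The other lower ones were 3 windows of EHMT1, with fold changes of -0.98, -0.73 and -0.71, and 3 overlapping windows at the start of SETDB1, at -0.82 to -0.78. These 6 values depended on single libraries, since without ΔLEO1 replicate A they shrank to between -0.64 and -0.19 and without replicate B they grew to between -1.35 and -1.08, and the KDM4A value ranged from 0.60 to 1.23 with 1 library left out. The direction of the calls depended on the scaling, since with peak totals as library sizes the windows of KDM1A (1.49, adjusted p = 0.0134), SETDB2 (1.35, adjusted p = 0.0287) and KDM4A (1.25, adjusted p = 0.0462) were called higher and none lower. That scaling moved the median fold change of all windows from -0.0078 to 0.27 and of the members to 0.21, and turned the calls over all windows from 130 higher and 424 lower to 2152 higher and 145 lower.

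**Figure D4:**
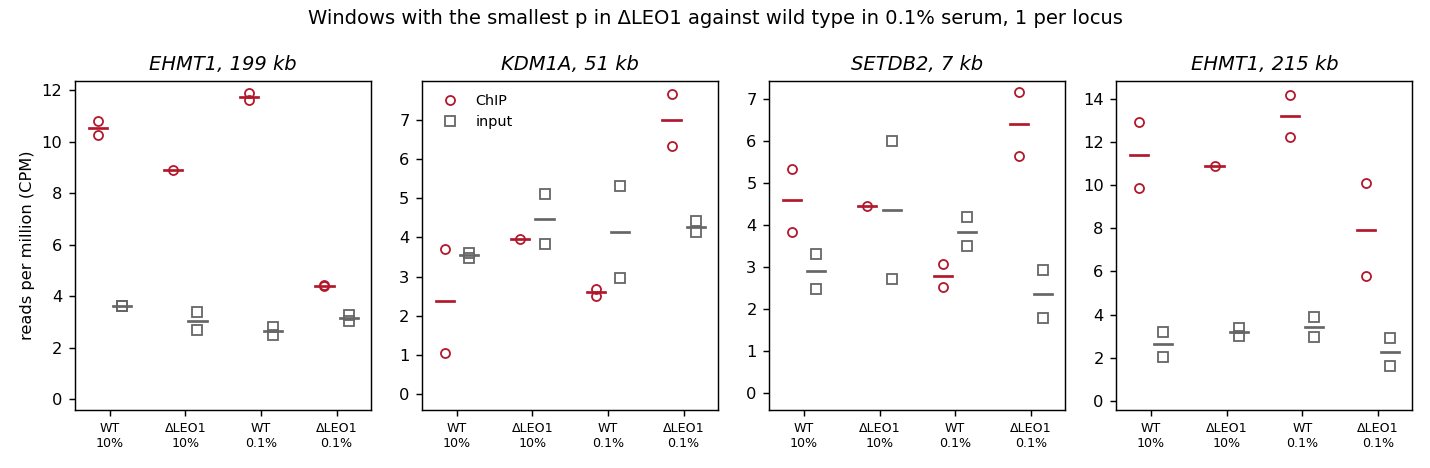
ChIP (circles) and input (squares) in CPM at the member windows with the smallest p for ΔLEO1 against WT in 0.1% serum, 1 per locus, where points are libraries and bars group means. At the EHMT1 window 198929 bp downstream both ΔLEO1 libraries in 0.1% serum lie below all other ChIP libraries, and at the KDM1A and SETDB2 windows they lie above those of WT in 0.1% serum.

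In 10% serum, where ΔLEO1 had 1 ChIP library, no member window was called by edgeR (0 of 102, against 0.0295% of all windows; 20 at an unadjusted p under 0.05, against 8.39% of all windows) or by DESeq2 (0, with 9 unadjusted). Of those 20 windows, 13 were overlapping windows at the start of SETDB1, all lower in ΔLEO1. At the main start of SETDB1 this was 3 reads against 14 and 17, or -1.54 ± 0.59 (adjusted p = 0.397), and in 0.1% serum the ΔLEO1 libraries had 10 and 9 reads against 19 and 10. A window of KDM3B 25126 bp downstream had the largest rise among the 20, 2.01 (adjusted p = 0.331). The interaction of genotype and serum was called at 0 of the member windows by edgeR and by DESeq2 (5 and 1 at an unadjusted p under 0.05, where edgeR had 5.65% of all windows) and at 0% of all windows.

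**Figure D5:**
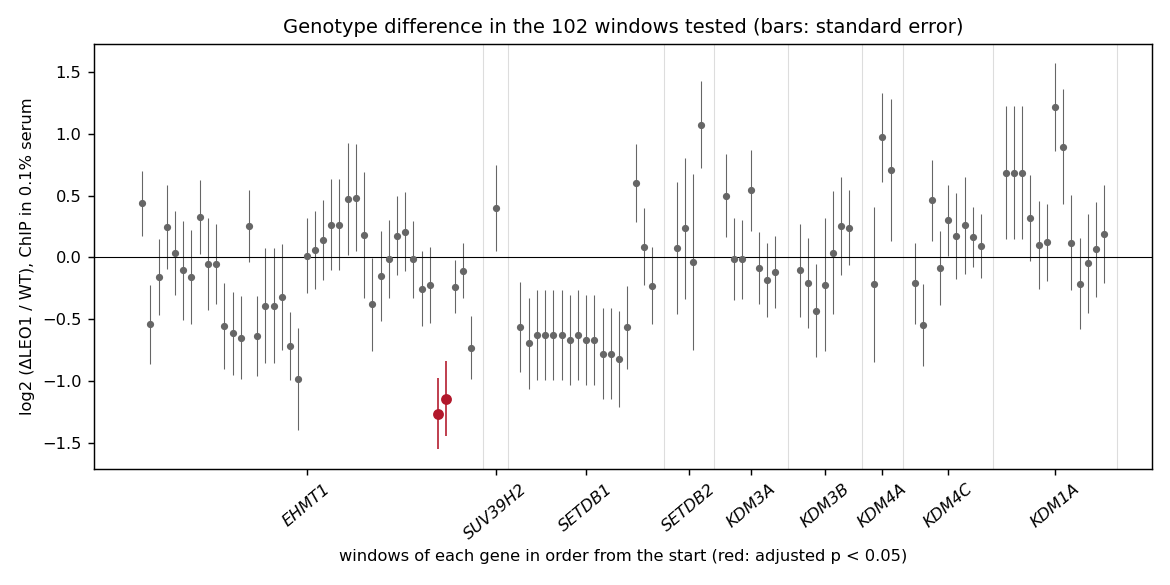
Log2 fold change of ChIP in ΔLEO1 against WT in 0.1% serum for the member windows tested, by gene. The EHMT1 windows called lower, at -1.26 and -1.14, are the lowest values, and the KDM1A window at 1.21 is the highest.

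Serum was compared within each genotype. In WT, 0.1% against 10% serum called 0 of 102 member windows with edgeR (0.27% of all windows; 8 at an unadjusted p under 0.05, 5 higher and 3 lower, against 9.4% of all windows) and 0 with DESeq2 (0 unadjusted). The 3 lower ones were overlapping windows at the start of KDM1A, whose main start had 7 and 12 reads in 10% serum and 1 and 5 in 0.1% serum (-1.24 ± 0.53, adjusted p = 0.418). That value was -0.65 without replicate A in 0.1% serum, which had 1 read, and -2.02 without replicate B. Among the higher ones, the KDM3B window 25126 bp downstream had 1 and 2 reads in 10% serum and 7 and 7 in 0.1% serum (1.31, adjusted p = 0.442). In ΔLEO1 the same comparison, with 1 ChIP library in 10% serum, called 0 member windows (0.0633% of all windows; 9 at an unadjusted p under 0.05, against 9.27% of all windows), and the main start of SETDB2, with 12 reads in 10% serum and 6 and 2 in 0.1% serum, had a fold change of -1.69 (adjusted p = 0.357).

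Summed over the 9 main starts, ChIP was 29.7 ± 0.467 CPM (SD, n = 2) in WT in 10% serum, 28.2 (n = 1) in ΔLEO1 in 10% serum, 20.9 ± 4.13 (n = 2) in WT in 0.1% serum and 19.2 ± 2.06 (n = 2) in ΔLEO1 in 0.1% serum. The inputs summed to 40.6 ± 5.33, 41.4 ± 2.12, 39.2 ± 1.16 and 34.0 ± 0.0346 CPM (n = 2 each). The ChIP sums in 0.1% serum lay below those in 10% serum in both genotypes, whereas the ChIP sums of the genotypes lay closer to each other than those of the sera did. The input sum was also lower in 0.1% serum in ΔLEO1 (34.0 against 41.4 CPM), while in WT it was 39.2 against 40.6 CPM. Over 51 windows clear of the main starts, 1 per locus, ChIP summed to 222 ± 11.6, 256, 247 ± 6.65 and 260 ± 3.63 CPM in the same order, and the inputs to 182 ± 0.997, 201 ± 16.5, 212 ± 3.00 and 203 ± 11.5 CPM. There both ChIP and input were higher in 0.1% than in 10% serum in WT, and the serum effect on the sums was not tested.

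The input libraries gave no member call in any of the 4 comparisons of genotype or serum with edgeR or DESeq2, where edgeR called 0% (genotype in 0.1% serum), 0.0021% (genotype in 10% serum), 0.0235% (serum in WT) and 0% (serum in ΔLEO1) of all windows. With an unadjusted p under 0.05, edgeR had 20, 9, 11 and 24 of 138 member windows in that order, of which 2, 7, 4 and 7 were higher. The shares of all windows were 5.33%, 6.6%, 10.2% and 3.96%. The member share was thus above that of all windows for genotype in 0.1% serum and for serum in ΔLEO1, among windows that overlap and share reads. DESeq2 had 0, 0, 1 and 0 member windows. When ChIP was set against input within 1 fit, the genotype effect in 0.1% serum was called at 0 member windows (0.0114% of all windows; 7 unadjusted, against 7.56%) and the serum effect in WT at 0 (0% of all windows; 12 unadjusted, against 8.34%), and DESeq2 also called 0 in both (3 unadjusted in each).

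In the second table, of 16092 merged peak regions, 5 were assigned to the members, 1 to EHMT1, 1 to KDM3A and 3 to KDM4C. None overlapped a member window, and 3 lay inside the span of the gene. The EHMT1 region, chr9:137637000-137637776, was annotated in the deposited table as an AluSq repeat, lay 18383 bp downstream of the main start and held 6.03 ± 3.09 CPM (SD, n = 2) in WT in 10% serum, 5.94 (n = 1) in ΔLEO1 in 10% serum, 3.42 ± 0.494 (n = 2) in WT in 0.1% serum and 7.96 ± 0.426 (n = 2) in ΔLEO1 in 0.1% serum, against 1.51 to 1.99 CPM in the input means. The KDM3A region, chr2:86428521-86429675, was annotated as an L1M2 repeat, lay upstream of the gene and held 13.9 ± 1.07, 11.4, 10.3 ± 2.19 and 7.49 ± 1.48 CPM in the same order. Across the 5 regions and 4 conditions, ChIP was 2.15 to 8.61 times input. These regions were called as peaks by the authors, so an excess over input is what chose them, and which libraries were used for the calls is not given in the sources used here.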

How the data were processed

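The authors deposited raw read counts, whole numbers without scaling, for each library over 2000 bp windows at annotated transcription start sites and over merged peak regions. The submitters' processing notes name bcl2fastq 2.20.0.422, STAR 2.7.10a, HOMER and the builds hg38 and dm6. The methods describe counting with csaw and scaling to fly chromatin, which was not used here, and the handling of duplicate and multi-mapped reads is not given in the sources used here. All 16 count columns were assigned to libraries from the labels, and 0 columns of per-sample values were set aside.

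Counts were tested with edgeR 4.0.16 (R 4.3.3), fitting 1 coefficient per group and running quasi-likelihood tests that were two-sided. Comparisons within ChIP used 7 libraries, those within input 8, and those of ChIP with input all 15. Windows were kept by filterByExpr at a minimum count of 10, totals were scaled by TMM, a prior count of 2 entered the fold changes, and a window was called at a Benjamini-Hochberg adjusted p under 0.05 over everything tested. Standard errors were derived from the F statistic. TMM centres the fold changes, so a shift of the mark across the whole genome cannot be seen. The labels do not say that replicates came from separate cultures, so the p-values measure only the spread between these libraries, which may be technical.

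The main start was the window whose centre lay nearest to the RefSeq gene start (GRCh38.p14), with ties settled by the number of transcripts. Each gene is named at its main start and at its window with the highest ChIP over input, and windows with an unadjusted p under 0.05 are named for the contrast of genotype in 0.1% serum and of serum in WT. The RefSeq promoter start was tried as the main start after the data had been seen. The members and gene lists were chosen with earlier results of these data known. Promoter sequences come from RefSeq, and all 10 members matched, KDM3A and KDM4C at a start other than the main one. Alternatives were DESeq2 1.42.0, no filter, no TMM, peak totals as library sizes, distinct windows, the replicate letter as a block, all 8 ChIP libraries, only the libraries compared, and each library left out in turn. The code was tested on simulated data. Tables and plots were made with Python 3.11.15, pandas 2.3.3, numpy 2.4.6 and matplotlib 3.10.9.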

Additional observations from a re-analysis of the deposited data

How the results depend on the processing

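The depth limits what can be seen at the main starts, where ChIP libraries held 0 to 21 reads, and ΔLEO1 in 10% serum rests on 1 ChIP library. Counts of calls stayed within 1.5 times of those reported, with their direction, and summed levels within their spread, in 171 of 201 alternatives. These 171 include comparisons that called 0 windows in both fits, which says little about stability. The other 30 follow. For ΔLEO1 against WT in 0.1% serum (2 windows called, both lower), the count was 1 with no filter, without TMM or with only the libraries compared, 0 with DESeq2 or with all 8 ChIP libraries, 3 (all higher) with peak totals as library sizes, and 0 to 0 with each library left out, that is without any 1 of the WT or ΔLEO1 libraries.

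For ChIP against input, the 55 windows called in WT in 10% serum became 39 with DESeq2 and 37 to 53 with 1 library left out (39 without ChIP replicate B). The 59 in WT in 0.1% serum became 42 and 37 to 55 (37 without ChIP replicate A), the 64 in ΔLEO1 in 0.1% serum 44 and 39 to 62 (39 without ChIP replicate A), and the 35 in ΔLEO1 in 10% serum 4 and 25 to 36. The main starts called lower were 5 in place of 3 in WT in 10% serum without TMM, with distinct windows or with the RefSeq promoter start, and in ΔLEO1 in 10% serum, in place of 1, they were 2 without TMM or with the promoter start, 0 with DESeq2 and 2 to 2 with an input left out. Apart from the peak totals, the counts for the alternatives are of member windows only. They do not show whether the share over all windows changed as well. The sum of ChIP over the main starts without TMM was 27.0 CPM in WT and 26.5 CPM in ΔLEO1 in 10% serum.

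Main starts near input changed sign, and none of these values was called. SETDB1 in WT in 10% serum was -0.11 without TMM, -0.12 with DESeq2, -0.012 with distinct windows and -0.036 to 0.17 with 1 library left out, in WT in 0.1% serum it was -0.018 without TMM, -0.054 with DESeq2 and -0.33 to 0.25, and in ΔLEO1 in 0.1% serum -0.32 to 0.033. KDM3B ranged from -0.090 to 0.63 in WT in 10% serum, from -0.56 to 0.17 in WT in 0.1% serum and from -0.19 to 0.15 in ΔLEO1 in 0.1% serum, and KDM1A from -0.39 to 0.10 in WT in 10% serum. The cause of these changes was not tested.

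With the replicate letter as a block, the genotype contrast in 0.1% serum again called 2 windows, ChIP against input in ΔLEO1 in 0.1% serum called 63 in place of 64, no other count changed, and KDM3B there was at 0.0091 in place of -0.034. The A minus B differences of different conditions correlated at -0.0021 to 0.0182 in ChIP and 0.0121 to 0.109 in input. Counting error at few reads per window shrinks such correlations, so they cannot show whether the letters mark a shared batch.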
